A study of Mus musculus with 9 samples.

Results

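Heat shock and chaperone genes were described here in mouse skin inflamed with imiquimod, with and without mechanical stretch. The set held 10 genes chosen by their symbols on the array's annotation, out of 19505 named genes measured, with earlier results of these data known. Cytosolic chaperones and their partners made up 6 of them (Hspa1a, Hspa1b, Hsph1, Hspb1, Dnajb1 and Hsp90aa1), endoplasmic reticulum (ER) chaperones 2 (Hspa5 and Hsp90b1) and transcription factors of ER stress 2 (Ddit3 and Xbp1). The first group, labelled IMQ+F, was stretched imiquimod-treated skin (n = 5 arrays), and the second, labelled IMQ+N, was non-stretched imiquimod-treated skin (n = 4 arrays). All samples came from back skin of C57BL/6J mice aged 8 weeks on which 5% imiquimod cream was spread each day for 7 days. Imiquimod activates a Toll-like receptor and produces inflammation like that of psoriasis. Stretched skin was drawn out by 10 mm with a traction device glued to it. Skin without imiquimod was not analysed here, and it is not stated whether the non-stretched skin also carried a device. Nor is it stated that no 2 samples share a mouse, so each p-value reflects only how far these samples differ among themselves, which may be technical.

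The heat shock response is run by the transcription factor HSF1, which on damage to cytosolic proteins switches on Hsp70, Hsp40, Hsp90, Hsp110 and small heat shock proteins. These bind unfolded proteins, refold them or hand them on for breakdown. The unfolded protein response is its counterpart in the ER: the sensors IRE1, PERK and ATF6 raise ER chaperones through XBP1, ATF4 and ATF6, and prolonged signalling raises CHOP, the product of Ddit3. In skin, small heat shock proteins accompany keratinocyte differentiation, and ER chaperones serve cells with a heavy secretory load such as fibroblasts and plasma cells.

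Promoter windows of chaperones are shown because a motif was found in the 2 ER chaperones and in no other member with a window. That motif is named for genes of ER stress, so its presence in ER chaperone genes gives no independent ground for the split. RefSeq windows (GRCm38.p6) that run from 250 bases before to 50 bases after an annotated start were found for 9 of the 10 members, with 11 windows in all, and Hsp90aa1 had no entry. Capitals mark matches to the heat shock motifs or to the ER stress response element, on either strand. The Hspa1a window was chr17:34972107-34972406 on the minus strand, and that of Hspb1 was chr5:135887669-135887968 on the plus strand. The Hspa1b window was chr17:34959189-34959488 on the minus strand, and that of Hsph1 was chr5:149636266-149636565 on the minus strand. For the ER chaperones, the Hspa5 window was chr2:34771840-34772139 on the plus strand and the Hsp90b1 window was chr10:86705395-86705694 on the minus strand.
Hspa1a: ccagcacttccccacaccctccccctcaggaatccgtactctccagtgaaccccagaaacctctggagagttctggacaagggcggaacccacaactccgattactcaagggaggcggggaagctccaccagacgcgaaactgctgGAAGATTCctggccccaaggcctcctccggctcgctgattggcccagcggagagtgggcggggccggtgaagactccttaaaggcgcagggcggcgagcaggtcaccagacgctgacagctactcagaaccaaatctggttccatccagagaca
Hspa1b: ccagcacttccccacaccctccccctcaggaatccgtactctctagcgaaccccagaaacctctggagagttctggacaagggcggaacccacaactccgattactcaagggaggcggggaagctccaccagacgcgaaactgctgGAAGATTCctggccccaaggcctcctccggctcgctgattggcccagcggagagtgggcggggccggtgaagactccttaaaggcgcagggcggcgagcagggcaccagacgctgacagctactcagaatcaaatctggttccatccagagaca
Hspb1: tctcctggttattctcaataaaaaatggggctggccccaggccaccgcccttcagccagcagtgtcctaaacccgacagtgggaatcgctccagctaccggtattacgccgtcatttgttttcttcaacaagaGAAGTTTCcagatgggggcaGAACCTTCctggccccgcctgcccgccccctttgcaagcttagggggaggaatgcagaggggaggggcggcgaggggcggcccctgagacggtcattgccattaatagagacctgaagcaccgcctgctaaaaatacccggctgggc
Hsph1: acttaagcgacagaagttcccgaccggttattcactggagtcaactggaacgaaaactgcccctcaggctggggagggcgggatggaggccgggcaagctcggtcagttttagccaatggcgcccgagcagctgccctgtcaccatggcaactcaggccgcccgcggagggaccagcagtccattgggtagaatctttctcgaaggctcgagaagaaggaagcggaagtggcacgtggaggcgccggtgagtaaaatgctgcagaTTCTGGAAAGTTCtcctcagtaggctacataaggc
Hspa5: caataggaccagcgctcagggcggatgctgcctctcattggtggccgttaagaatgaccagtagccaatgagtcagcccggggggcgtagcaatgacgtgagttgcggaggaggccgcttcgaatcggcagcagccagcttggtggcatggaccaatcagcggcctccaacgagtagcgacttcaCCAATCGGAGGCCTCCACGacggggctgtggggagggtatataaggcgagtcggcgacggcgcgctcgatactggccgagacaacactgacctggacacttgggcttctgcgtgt
Hsp90b1: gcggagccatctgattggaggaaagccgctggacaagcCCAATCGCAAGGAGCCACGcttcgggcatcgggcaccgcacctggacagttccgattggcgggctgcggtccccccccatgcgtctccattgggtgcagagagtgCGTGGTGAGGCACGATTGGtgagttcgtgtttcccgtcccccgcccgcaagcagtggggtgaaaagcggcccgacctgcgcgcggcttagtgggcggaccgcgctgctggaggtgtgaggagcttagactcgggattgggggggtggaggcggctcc

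The ER stress response element, CCAAT and CCACG with 9 bases of any kind between them, was found in the windows of both ER chaperones and of no other member, and in 0.119% of all 32851 windows. Hspa5 held it once, at bases -65 to -47 counted from the annotated start at 0, and Hsp90b1 held it at bases -212 to -194 and, on the opposite strand, at -107 to -89. The heat shock pair GAANNTTC was found in 4 cytosolic members (Hspa1a, Hspa1b, Hsph1 and Hspb1) and in 7.86% of all windows. Dnajb1, the other cytosolic member with windows, did not hold the pair, and its windows are not shown. Hspb1 held 2 pairs, at bases -117 to -110 and -97 to -90. The longer heat shock element, the same pair followed by 2 bases of any kind and GAA, was found in Hsph1 alone among the 9 members and in 0.603% of all windows. The XBP1 site TGACGTGG was in none of the 9 members and in 0.676% of all windows. A CCAAT box, the first letters of the ER stress response element, was in 7 of the 9 members and in 37.4% of all windows. Windows of Hspa1a and Hspa1b had the same base at 296 of 300 positions. These genes encode near-identical Hsp70 proteins and their transcripts may share probe signal, so the 2 measurements are uncertain as separate genes.

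No member passed the test between stretched and non-stretched skin: 0 of 10 had an adjusted p under 0.05 in limma's moderated test, where 0.246% of all 19505 genes did. None reached an unadjusted p under 0.05 either, against 13.0% of all genes, and the 2 groups overlapped for all 10 members, whereas they did not overlap for 4.54% of all genes. The mean was higher in stretched skin for 4 members and lower for 6, and the median log2 change (stretched minus non-stretched) was -0.11, beside -0.0034 over all genes. Under the alternative settings tried, which called between 0.0103% and 1.13% of all genes, again 0 members were called. The median size of the change was 0.14 for the members and 0.20 for all genes on the log2 scale. Standard errors of the members ran between 0.18 and 0.38, beside a median of 0.21 over all genes, so the 95% confidence intervals reached from -1.09 to 1.37 on the log2 scale. All values below are deposited log2 levels, and levels of different genes are not set against each other because each comes from its own probes. In these bulk samples, fewer cells of a type and less RNA per cell cannot be told apart.

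**Figure D1:**
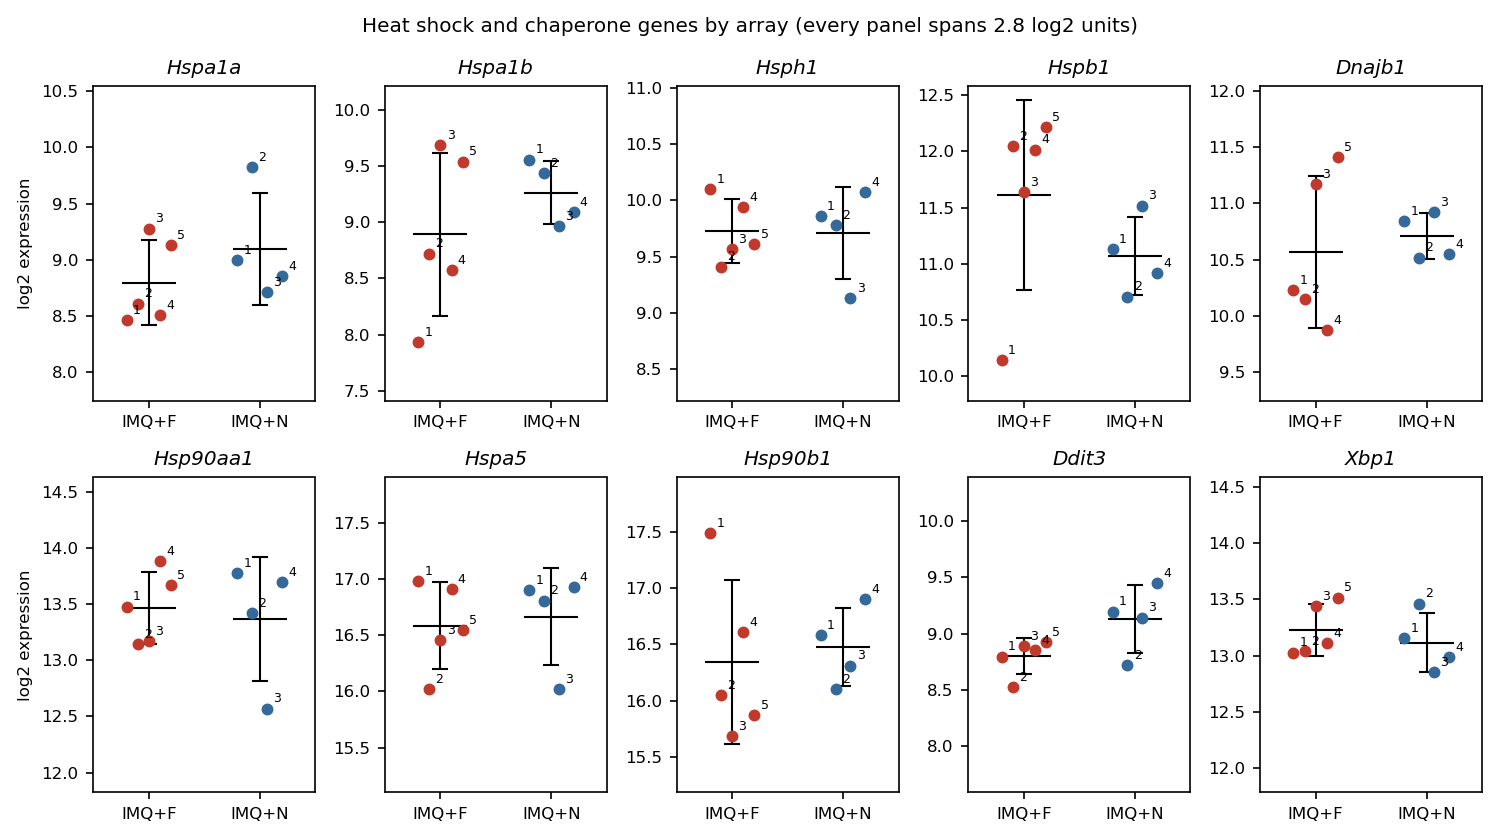
Deposited log2 level (y axis, log2 units; every panel spans the same number of units) of each of the 10 members on each array, with stretched arrays (IMQ+F, n = 5) left of non-stretched arrays (IMQ+N, n = 4) and the mean and SD beside the points. The groups overlap in every panel, and the widest of the spreads is that of Hspb1 in stretched arrays (SD 0.85).

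The tissue label was checked against 1 marker: the basal keratinocyte keratin Krt14 was at 19.13 to 19.76 in stretched and 18.41 to 19.48 in non-stretched arrays, where the highest value of any gene was 19.93. Of the 7 basal keratinocyte markers, 4 had a higher and 3 a lower mean in stretched skin. They averaged -0.52 to 0.39 in stretched and -0.26 to 0.15 in non-stretched arrays, in log2 units from the non-stretched mean. Array medians over all features lay between 5.81 and 5.86 in stretched arrays and between 5.87 and 5.99 in non-stretched arrays, without overlap. Non-stretched replicate 3 stood somewhat apart, with a median correlation of 0.975 with the other arrays, against 0.980 to 0.987 for the rest, and stretched replicate 1 had the lowest weight (0.55) when arrays were weighted by how well they followed the fit. Suprabasal keratinocyte markers (9 of 9 measured) averaged -1.56 to -0.19 in stretched arrays and -0.28 to 0.25 in non-stretched arrays, in log2 units from the non-stretched mean. Neutrophil markers (10 of 11 measured) averaged 0.83 to 1.95 in stretched arrays and -0.46 to 0.37 in non-stretched arrays on the same scale. Macrophage markers (7 of 8 measured, all 7 with a higher mean in stretched skin) averaged -0.17 to 1.32 in stretched and -0.66 to 0.70 in non-stretched arrays. Adipocyte markers (7 of 7) averaged -1.54 to -0.42 in stretched and -0.37 to 0.37 in non-stretched arrays, melanocyte markers (5 of 5) -1.71 to -0.93 in stretched and -0.16 to 0.16 in non-stretched arrays, and sebocyte and hair markers (7 of 7) -2.64 to -1.24 in stretched and -1.005 to 0.79 in non-stretched arrays. The part of these cell types in the results below was not tested.

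Hspa1a, which encodes the stress-inducible cytosolic Hsp70, had log2 levels of 8.47, 8.61, 9.28, 8.51 and 9.13 in stretched replicates 1 to 5, against 9.001, 9.83, 8.71 and 8.86 in non-stretched replicates 1 to 4. Stretched replicates 1, 2 and 4 lay below every non-stretched array, while the other 2 lay among them. Its mean was 8.80 ± 0.38 (SD, n = 5) in stretched and 9.10 ± 0.50 (n = 4) in non-stretched skin, a log2 change of -0.30 (SE 0.26, limma adjusted p = 0.66). Hspa1b, the adjacent copy, measured 7.94, 8.72, 9.68, 8.58 and 9.54 in stretched arrays and 9.55, 9.44, 8.97 and 9.09 in non-stretched arrays. Here too stretched replicates 1, 2 and 4 were below all non-stretched arrays, and replicate 3 was above all of them. The log2 change of Hspa1b was -0.37 (SE 0.33, limma adjusted p = 0.67).

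Dnajb1, the Hsp40 co-chaperone that delivers substrates to Hsp70 and starts its ATPase cycle, had 10.23, 10.15, 11.17, 9.88 and 11.41 in stretched replicates 1 to 5, against 10.84, 10.52, 10.92 and 10.55 in non-stretched replicates. None of the 5 stretched arrays fell inside the non-stretched range: replicates 1, 2 and 4 lay below it and replicates 3 and 5 above it. The means were close, at 10.57 ± 0.68 (SD, n = 5) in stretched and 10.71 ± 0.21 (n = 4) in non-stretched skin, with a log2 change of -0.14 (SE 0.31, limma adjusted p = 0.88). Averaged over Hspa1a, Hspa1b and Dnajb1 and centred on the non-stretched mean, stretched replicates 1 to 5 stood at -0.81, -0.53, 0.36, -0.70 and 0.34 log2 units. The non-stretched replicates stood at 0.11, 0.24, -0.16 and -0.19. The 3 stretched arrays low for this Hsp70 and Hsp40 group also had the lowest stretched averages of the suprabasal keratinocyte markers: -0.98, -0.82 and -1.56 in replicates 1, 2 and 4, against -0.34 and -0.19 in replicates 3 and 5. Activated keratinocyte markers were lowest there too, at -0.01, 0.63 and -0.10, against 1.72 and 0.94. Non-stretched replicates 1 to 4 did not keep the suprabasal order. Their suprabasal averages were 0.25, -0.20, 0.22 and -0.28, and their activated averages -0.51, 1.18, -0.66 and -0.01. The part of these markers in the chaperone levels was not tested.

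Hspb1, the small heat shock protein of mouse keratinocytes and muscle that holds unfolding proteins in soluble complexes, showed the largest change of the 10 members. Its log2 level was 10.15, 12.05, 11.64, 12.02 and 12.22 in stretched replicates 1 to 5, against 11.13, 10.71, 11.52 and 10.92 in non-stretched replicates. Stretched replicates 2 to 5 were above every non-stretched array and replicate 1 was below every one. The mean was 11.61 ± 0.85 (SD, n = 5) in stretched and 11.07 ± 0.35 (n = 4) in non-stretched skin, a log2 change of 0.54 (SE 0.38, 1.46-fold, limma adjusted p = 0.57). Without stretched replicate 1, an alternative that leaves 4 arrays in each group, the mean was 11.98 ± 0.24 (SD, n = 4) in stretched and 11.07 ± 0.35 (n = 4) in non-stretched skin. The groups then no longer overlapped (3.91% of all genes were higher in that way), because the 1 stretched array below the others was the one left out. The log2 change was 0.91 (SE 0.21, 1.88-fold), with a limma adjusted p of 0.11. This was the largest change of the 9 fits with 1 array left out. Over those fits the change ran from 0.39 to 0.91 and the limma adjusted p from 0.11 to 0.73.

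Hsp90aa1 and Hsph1 had close means in the 2 groups. Hsp90aa1, the inducible cytosolic Hsp90 that matures kinases and steroid receptors, had 13.48, 13.14, 13.17, 13.88 and 13.67 in stretched arrays, against 13.78, 13.42, 12.57 and 13.70 in non-stretched arrays. Non-stretched replicate 3 was the lowest of all 9, and the log2 change was 0.10 (SE 0.26, limma adjusted p = 0.90). Hsph1, an Hsp110 that exchanges nucleotide on Hsp70, had 10.10, 9.41, 9.57, 9.94 and 9.61 in stretched arrays and 9.86, 9.78, 9.13 and 10.08 in non-stretched arrays. Its log2 change was 0.02 (SE 0.22, 95% confidence interval -0.47 to 0.50, limma adjusted p = 0.98), the smallest of the set. Although both are cytosolic, Hsph1 and Hsp90aa1 lay on the same side of their group mean as the ER chaperone Hspa5 on 9 of 9 and 8 of 9 arrays.

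**Figure D2:**
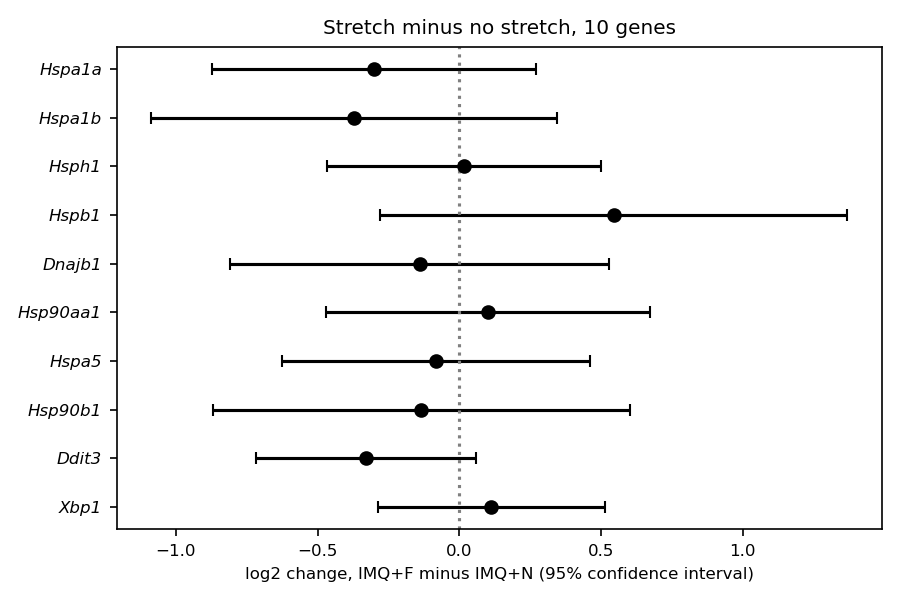
Log2 change (stretched minus non-stretched) of each member with its 95% confidence interval from limma. Every interval includes 0, from Hspb1 at 0.54 to Hspa1b at -0.37.

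Hspa5 encodes BiP, the ER Hsp70 that also holds the stress sensors inactive. It measured 16.98, 16.02, 16.46, 16.91 and 16.55 in stretched replicates 1 to 5, against 16.90, 16.81, 16.02 and 16.93 in non-stretched replicates. Stretched replicate 2 and non-stretched replicate 3 were the lowest arrays, and the remaining non-stretched arrays were tightly grouped. The log2 change was -0.08 (SE 0.25, 95% confidence interval -0.63 to 0.46, limma adjusted p = 0.92). Hsp90b1 encodes GRP94, the ER Hsp90 needed to fold integrins and Toll-like receptors. Its log2 level was 17.49, 16.05, 15.68, 16.61 and 15.87 in stretched arrays, against 16.58, 16.10, 16.31 and 16.90 in non-stretched arrays. Stretched replicate 1 was the highest of all 9 arrays, while replicates 2, 3 and 5 were below every non-stretched array. Its log2 change was -0.14 (SE 0.34, limma adjusted p = 0.90). Plasma and B cell markers (9 of 10 measured) averaged 0.86, 0.37, 0.37, 0.13 and 0.70 in stretched replicates 1 to 5 and -0.17, -0.06, -0.32 and 0.54 in non-stretched replicates. The highest Hsp90b1 level of each group thus fell on the array with that group's highest marker average, but stretched replicate 5, second highest for the markers, had a low Hsp90b1 level. Fibroblast markers (6 of 7 measured, 1 of them called lower) averaged -1.22 to -0.69 in stretched arrays and -0.15 to 0.17 in non-stretched arrays, without overlap. The part of plasma cells and fibroblasts in the ER chaperone levels was not tested.

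Ddit3, the transcription factor CHOP, was the one member below the non-stretched mean in all 5 stretched arrays. It had 8.80, 8.52, 8.89, 8.85 and 8.93 in stretched replicates, against 9.20, 8.72, 9.14 and 9.45 in non-stretched replicates. Non-stretched replicate 2 was lower than all but 1 of the stretched arrays, so the groups overlapped. The mean was 8.80 ± 0.16 (SD, n = 5) in stretched and 9.13 ± 0.30 (n = 4) in non-stretched skin, a log2 change of -0.33 (SE 0.18). This was the smallest p of the set, 0.090 before and 0.47 after limma's adjustment. A further feature annotated to Ddit3 had a log2 change of -0.45 (SE 0.22, adjusted p = 0.43 over all features in limma). Xbp1, whose mRNA IRE1 splices to make the active factor, had 13.03, 13.04, 13.44, 13.11 and 13.52 in stretched arrays, against 13.16, 13.46, 12.85 and 12.99 in non-stretched arrays. Its log2 change was 0.11 (SE 0.18, limma adjusted p = 0.84), and spliced and unspliced transcripts were not told apart here.

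Set against each other on each array, the cytosolic and ER chaperones differed between the groups by less than their spread. The mean of the 6 cytosolic members, each centred on its non-stretched mean, was -0.48, -0.19, 0.22, -0.07 and 0.39 in stretched replicates 1 to 5, against 0.16, 0.08, -0.23 and -0.01 in non-stretched replicates. The mean of the 2 ER chaperones was 0.66, -0.53, -0.50, 0.19 and -0.36 in stretched arrays, against 0.17, -0.12, -0.40 and 0.35 in non-stretched arrays. Stretched replicate 1 was thus lowest of the 9 for the cytosolic mean and highest for the ER mean. The cytosolic mean less the ER mean was -1.14, 0.34, 0.72, -0.26 and 0.75 in stretched arrays and -0.01, 0.20, 0.17 and -0.35 in non-stretched arrays. Its SD was 0.80 in stretched and 0.25 in non-stretched skin, larger than the difference of 0.08 between the group means. Leaving out stretched replicate 1 made that difference 0.39, with stretched and non-stretched arrays still overlapping. This was the largest of the 9 values with 1 array left out, which ran from -0.08 to 0.39. The difference was negative without stretched replicate 3, without stretched replicate 5 and without non-stretched replicate 4. No p is given for these averages because the genes were grouped with results of these data known.

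**Figure D3:**
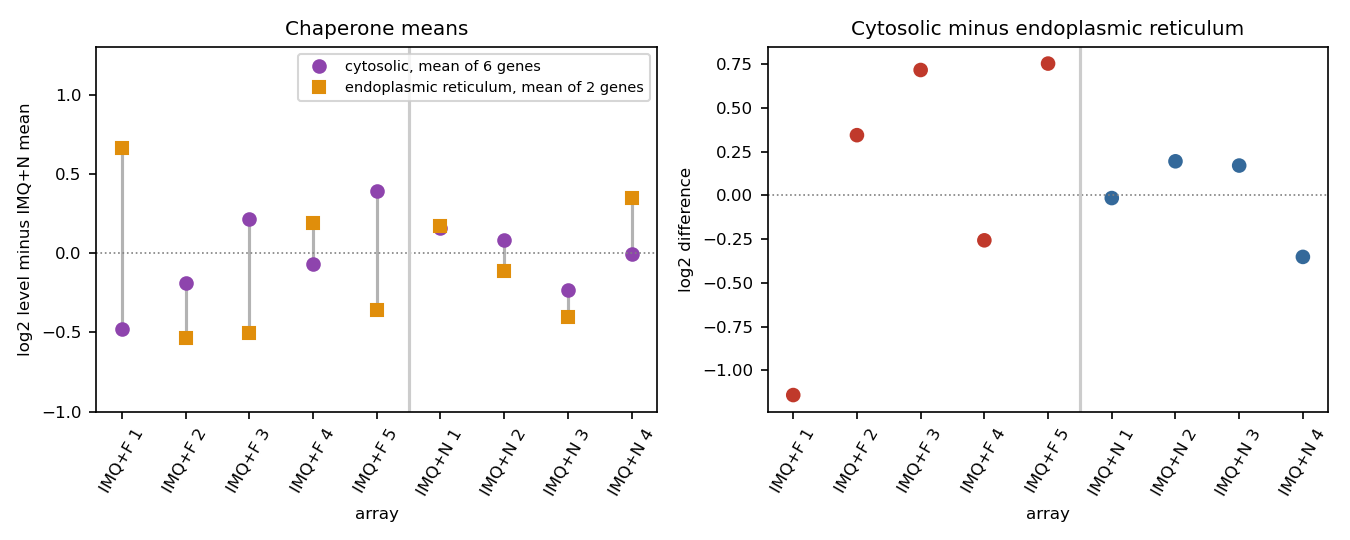
Mean of the 6 cytosolic members and of the 2 ER chaperones on each array, and the first less the second, in log2 units from the non-stretched mean, with stretched arrays (n = 5) left of non-stretched arrays (n = 4). Stretched replicate 1 lies at -1.14 in the difference and the other stretched arrays between -0.26 and 0.75.

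Over the 45 pairs of members, both genes lay on the same side of their own group mean on a median of 5 of the 9 arrays (mean 4.98). At the upper end, 2 pairs did so on 9 arrays (Hsph1 with Hspa5 and Hspa1b with Xbp1) and 6 pairs on 8 arrays, among them Hspa1a with Hspa1b, Hspa1a with Xbp1, Hspa5 with Hsp90b1 and Hsph1 with Hsp90b1. At the lower end, 5 pairs did so on 2 arrays, among them Hspa1a with Hsp90b1, Hsph1 with Hspb1 and Dnajb1 with Hspa5. Over the 9 arrays, the genes outside the set whose levels followed Hspa1a most closely were Pglyrp3 (Pearson r = 0.97, Spearman rho = 0.97), Kif13b (r = 0.96, rho = 0.95), Ppargc1a (r = 0.94, rho = 0.95), Tmem229b (r = 0.92, rho = 0.92) and Zfyve27 (r = 0.92, rho = 0.97). For Hspa5 they were Sos1 (r = 0.96, rho = 0.83), Atp6v1g2 (r = 0.92, rho = 0.79), Tgs1 (r = 0.91, rho = 0.63), Srgap2 (r = 0.91, rho = 0.73) and Dock8 (r = 0.90, rho = 0.92). These are descriptions over 9 arrays picked as the highest of 19505 genes, and the arrays share labelling and normalization.

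Beyond the 10 members, 9 lists of genes from the same systems had 108 of 119 entries measured. Of these 108, 1 was called higher and 0 lower in stretched skin, where 0.0820% and 0.164% of all genes were, and 15 (13.9%) had an unadjusted p under 0.05, beside 13.0% of all genes. Groups did not overlap for 3 genes higher in stretched skin and 1 lower, where 2.38% and 2.15% of all genes did so. The median log2 change over the 108 was 0.13, beside -0.0034 over all genes.

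The called gene was Hmox1, heme oxygenase, which heat shock and oxidative stress both induce and which breaks down heme. It had 14.82, 14.79, 13.37, 14.71 and 14.50 in stretched replicates, against 12.18, 12.30, 11.61 and 13.28 in non-stretched replicates, with every stretched array above every non-stretched one. The log2 change was 2.10 (SE 0.36, 4.27-fold, limma adjusted p = 0.045). The adjusted p was close to the threshold, and the call was not kept in most fits with 1 array left out at a time. Over those fits the log2 change ran from 1.85 to 2.41 and the limma adjusted p between 0.0074 and 0.15. The adjusted p stayed under 0.05 in 2 of 9 such fits, those without stretched replicate 3 and without non-stretched replicate 4 (adjusted p = 0.0074 and 0.034 in limma).

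The list of other chaperones, co-chaperones and heat shock targets had 18 of 23 genes measured, Hmox1 included. The mean was higher in stretched skin for 16 and lower for 2, with a median log2 change of 0.18. Besides Hmox1, 0 were called. Hspb8, a small heat shock protein that works with Bag3 in clearing aggregates, had a log2 change of 1.25 (SE 0.31, adjusted p = 0.12 in limma), Dnajb4, an Hsp40, had 0.56 (adjusted p = 0.33) and Fkbp4, an Hsp90 co-chaperone, had -0.41 (adjusted p = 0.32). Heat shock factors and their binding protein (4 of 5 measured) had 0 calls and a median of 0.14. The gene not measured was Hsf1, which encodes HSF1 itself. The cytosolic chaperonin CCT and its partner prefoldin (12 of 13 measured), which fold actin and tubulin, had a higher mean in stretched skin for all 12 measured genes, with 0 called and a median of 0.23. The smallest of these changes, that of Pfdn1 (0.08), did not keep its sign. It was -0.01 with array weights and -0.15 to 0.26 with 1 array left out at a time. The 1 gene of these 12 whose groups did not overlap was Cct4, at 15.13, 13.84, 13.99, 14.33 and 13.84 in stretched arrays, against 13.63, 13.76, 13.61 and 13.67 in non-stretched arrays. Its log2 change of 0.56 was above the list's median, with a limma adjusted p of 0.37. Mitochondrial chaperones and proteases (9 of 9 measured) had 0 calls and a median of 0.12, with Hspd1, the mitochondrial Hsp60, at 0.31 and its partner Hspe1 at 0.27.

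Genes of ER folding other than the members (21 of 23 measured) had higher means in stretched skin for 13 and lower means for 8, with 0 called and a median log2 change of 0.16. Ero1a, the oxidase that recharges protein disulfide isomerase, had a log2 change of 0.86 (SE 0.25, limma adjusted p = 0.17), and P4hb, protein disulfide isomerase itself, had 0.60 (adjusted p = 0.22). Canx, the lectin chaperone calnexin, had -0.34 (adjusted p = 0.44). ER-associated degradation (13 of 13 measured) had 0 calls and a median of -0.11. It held the single gene of the 9 lists of related genes that was lower in stretched skin without overlap, as 2.15% of all genes were. This was Herpud1, an ER membrane protein that organises the degradation complex and is itself a target of the unfolded protein response. It had 10.44, 10.94, 11.18, 10.88 and 11.36 in stretched arrays, against 12.07, 12.18, 11.66 and 11.51 in non-stretched arrays, a log2 change of -0.90 (SE 0.22, limma adjusted p = 0.12).

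The stress sensors and their processing genes (6 of 8 measured) had a lower mean in stretched skin for all 6 measured, with 0 called and a median of -0.24. Among them Ern2 was dim, with means of 3.62 in stretched and 3.86 in non-stretched skin. It did not pass the filter on dim genes that was tried as an alternative. Atf6b was at -0.0018 without non-stretched replicate 1. Eif2ak3, which encodes PERK, had a log2 change of -0.33 (limma adjusted p = 0.46) and Ern1, which encodes IRE1, had -0.25 (adjusted p = 0.68). Genes downstream of PERK and ATF4 (18 of 18 measured) had higher means for 11 and lower means for 7, with 0 called and a median of 0.21. Ddit4, an inhibitor of mTORC1 signalling, had 9.57, 10.02, 9.60, 10.99 and 10.49 in stretched arrays, against 9.16, 8.83, 8.47 and 8.71 in non-stretched arrays. Every stretched array was above every non-stretched one, with a log2 change of 1.34 (SE 0.29, 2.53-fold, limma adjusted p = 0.082). With 1 array left out at a time its limma adjusted p ran between 0.046 and 0.23, and it was under 0.05 in 1 of 9 such fits, the one without stretched replicate 3. Cebpb, a dimer partner of CHOP, had a log2 change of 0.82 (adjusted p = 0.20 in limma), and Atf3, which ATF4 induces, had 0.74 (adjusted p = 0.38).

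**Figure D4:**
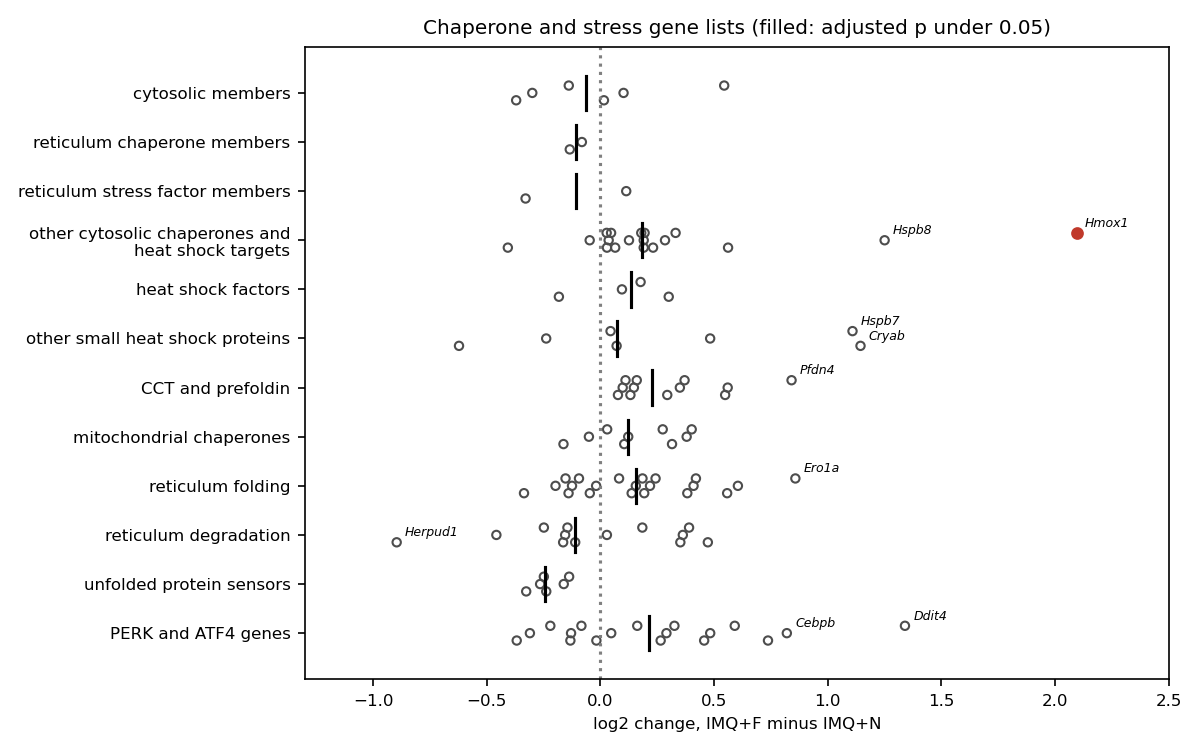
Log2 change (stretched minus non-stretched) of each measured gene in the members and in each list of related genes, with the median of the list marked. Hmox1 at 2.10 is the one gene called. In this fit the sensors all lie below 0, the nearest being Atf6b at -0.14. The chaperonin genes all lie above it, the nearest being Pfdn1 at 0.08.

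Small heat shock proteins other than Hspb1 and Hspb8 (7 of 7 measured) had higher means in stretched skin for 5 and lower means for 2, with 0 called and a median log2 change of 0.07. Cryab, Hspb7 and Hspb6 each had their lowest stretched value in replicate 1. Cryab, alpha B-crystallin, a chaperone of desmin and other filaments, had 12.61, 14.50, 13.97, 14.74 and 14.64 in stretched replicates 1 to 5, against 12.78, 13.05, 12.64 and 13.33 in non-stretched replicates. Stretched replicates 2 to 5 were above all non-stretched arrays and replicate 1 below them all, the same order as for Hspb1, and the log2 change was 1.14 (SE 0.38, limma adjusted p = 0.23). Hspb8 had 10.36, 11.49, 12.04, 11.69 and 11.56 in stretched arrays, against 10.19, 9.78, 10.11 and 10.65 in non-stretched arrays. Here replicate 1 lay within the non-stretched range.

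Hspb7, a small heat shock protein of heart and skeletal muscle, had 9.24, 12.70, 12.52, 12.53 and 12.06 in stretched arrays, against 10.72, 12.05, 9.75 and 10.28 in non-stretched arrays (log2 change 1.11, SE 0.68, limma adjusted p = 0.53). Hspb6, expressed in smooth and skeletal muscle, had 11.35, 14.67, 14.91, 14.31 and 15.41 in stretched arrays, against 15.07, 15.10, 14.41 and 14.43 in non-stretched arrays (log2 change -0.62, SE 0.66, limma adjusted p = 0.73). Skeletal muscle markers (11 of 11 measured) averaged -1.41, 0.13, 0.81, 0.01 and 0.40 in stretched replicates 1 to 5, against -0.27, 0.38, -0.18 and 0.08 in non-stretched replicates. Stretched replicate 1 thus also had the lowest muscle average, but single markers differed. In that array Actn3 (10.39) and Ckm (10.85) were the lowest of the stretched arrays, while Mylpf (17.03) was above the non-stretched range of 15.42 to 16.56. The part of muscle in the small heat shock protein levels was not tested. Without stretched replicate 1, where 0.364% of all genes were called, Cryab and Hspb8 passed the test. Cryab then had a log2 change of 1.51 (2.86-fold, limma adjusted p = 0.026) and Hspb8 one of 1.52 (2.86-fold, limma adjusted p = 0.024). This was the 1 fit, of 9 with an array left out, in which either gene passed, and over the 9 fits the limma adjusted p ran up to 0.47 for Cryab and 0.31 for Hspb8. Leaving out non-stretched replicate 3 as well gave log2 changes of 1.41 for Cryab and 1.49 for Hspb8, with limma adjusted p of 0.064 and 0.062. Without stretched replicate 1 alone, Hspb7 had a log2 change of 1.75 (adjusted p = 0.11 in limma) and Hspb6 one of 0.07 (adjusted p = 0.94).

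**Figure D5:**
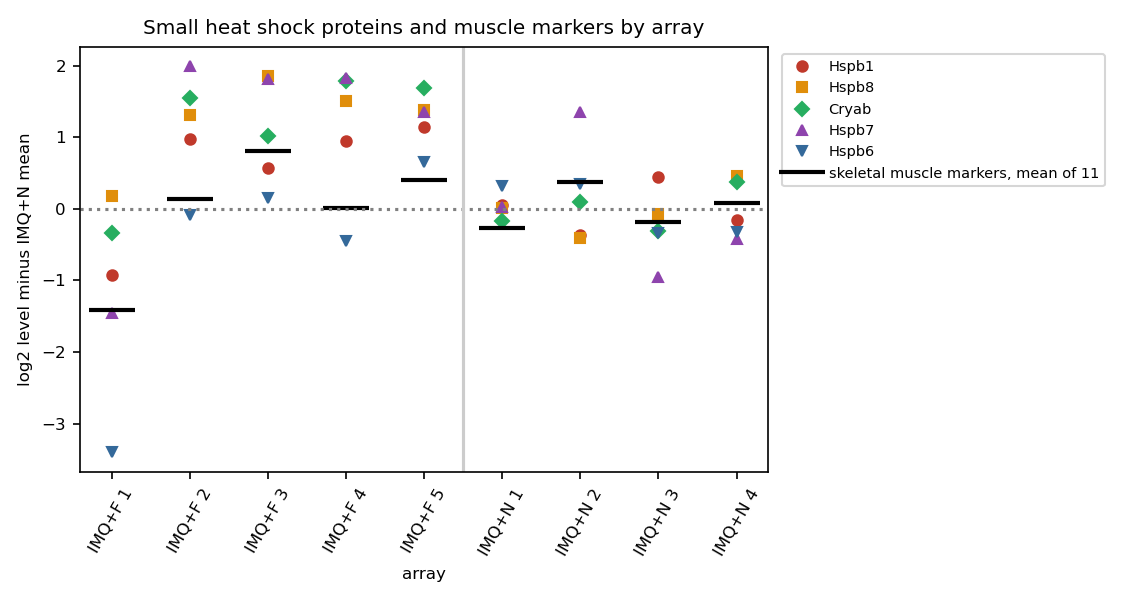
Log2 level of the small heat shock proteins and mean of the skeletal muscle markers on each array, centred on the non-stretched mean, with stretched arrays (n = 5) left of non-stretched arrays (n = 4). Stretched replicate 1 is the lowest of its group for each gene drawn and for the mean of the muscle markers.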

How the data were processed

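Total RNA from each skin sample was labelled as biotinylated cRNA and hybridised to 1 Affymetrix array, per the labels' protocols. The authors deposited log2 expression values of 22206 features on 9 arrays. The tools were RMA and Transcriptome Analysis Console, per the submitters' processing notes, with no versions, and RMA corrects background, quantile-normalizes and summarizes probes, which understates changes of dim genes. Detection calls were not used here, and the number of arrays limits the precision.

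Gene symbols came from the platform annotation: 19572 features had 1 symbol, 0 had several and 2634 were unnamed here. For the 55 genes with several features, Ddit3 among them, the feature with the highest mean was used, giving 19505 genes. All 10 members were measured, and all passed the filter on dim genes that was tried as an alternative. Groups were taken from sample titles. Stretched minus non-stretched differences were fitted over all genes with limma 3.58.1 in R 4.3.3 (lmFit and eBayes, two-sided, no covariate), with Benjamini-Hochberg adjustment and a threshold of 0.05. All adjusted p-values come from this fit unless an alternative is named, and the code was tested on simulated data. Alternatives were quantile normalization, median centring, averaged features, the dim filter, eBayes with trend and robust settings, array weights, a replicate block, other thresholds and leaving out arrays. The second Ddit3 feature was added after seeing the data.

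The members and lists were chosen with earlier results of these data known. Named were all members, up to 4 genes of the smallest p and the extremes of each list, the 5 genes most correlated with Hspa1a and with Hspa5, and up to 3 genes per marker list. Of these, the text gives those that a result turns on. Promoter windows came from RefSeq tables of GRCm38.p6 and were searched on both strands.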

Additional observations from a re-analysis of the deposited data

Results flagged for a closer look

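Each group was searched for 1 array far from the others, by the gap to its nearest neighbour over the group's range. The search covered 110 groups, from the 10 members, 42 related genes named for their small p or extreme change, and 3 averages of chaperone genes. Such an array was found in 11 groups, 5 of them through stretched replicate 1. Chance flags about 1 in 20 groups where groups are independent, which genes of the same arrays are not. Among the members, Hspb1 in stretched replicate 1 was 10.15, against 11.64 to 12.22 in the other stretched arrays, and Hspa5 in non-stretched replicate 3 was 16.02, against 16.81 to 16.93 in the other non-stretched arrays.

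Stretched replicate 1 was also the low array of its group for Hspb7 (9.24, others 12.06 to 12.70), Hspb6 (11.35, others 14.31 to 15.41), Hsbp1, which binds heat shock factor (9.69, others 10.76 to 11.11), and Nupr1, a stress-induced chromatin protein (10.48, others 11.72 to 12.12). Hmox1 in stretched replicate 3 was 13.37, against 14.50 to 14.82 in the other stretched arrays. Among non-stretched arrays, Hspe1 was 8.76 in replicate 1 (others 9.17 to 9.21), Canx was 14.24 in replicate 2 (others 14.64 to 14.72) and Dnaja3, a mitochondrial Hsp40, was 6.61 in replicate 3 (others 7.32 to 7.40). Ube2j1, a ubiquitin-conjugating enzyme of ER-associated degradation, was 10.62 in non-stretched replicate 4, above 10.47 to 10.50 in the others.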

How the results depend on the processing

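No member passed an adjusted p of 0.05 in limma under any setting tried; the smallest adjusted p was 0.089, for Hspb1 without non-stretched replicate 3 and stretched replicate 1. The number of genes past the threshold, 48, was 105 without dim genes, 157 with array weights, 15 without those 2 arrays, 211 at an adjusted p of 0.1, and 2 to 195 with 1 array left out at a time. With the replicate block it was 221. Replicate numbers were not taken to pair the samples: same-numbered samples' deviations correlated at -0.06, -0.02, 0.06 and 0.34, and for 1 of 4 numbers the same-numbered sample was the closest. The sign of 5 members was the same throughout. Hsph1 (0.02) was -0.031 with quantile normalization, -0.13 with array weights, -0.27 without both arrays and -0.18 to 0.14 with 1 array left out. Dnajb1 (-0.14) was 0.018 without both arrays and -0.35 to 0.033 with 1 left out, and Hsp90aa1 (0.10) was -0.012 with array weights, -0.17 without both and -0.16 to 0.24 with 1 left out. With 1 left out, Hspa5 (-0.08) ran from -0.30 to 0.058 and Hsp90b1 (-0.14) from -0.42 to 0.030; without both arrays they were -0.40 and -0.48. The causes were not tested. With array weights, Hspb8 and Ddit4 reached adjusted p of 0.047 and 0.036 in limma. Hmox1 lost its call without both arrays (adjusted p = 0.15). The cytosolic mean less the ER mean (difference between groups 0.08) was 0.27 with array weights and -0.08 with the replicate block. With median centring the group difference of the cytosolic mean (-0.02) was 0.04, and that of the ER mean (-0.11) was -0.04. The trend and robust settings give no value of their own for these averages.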
